A study of Mus musculus with 21 samples.

Results

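The UDP-glucuronosyltransferase genes of mouse liver were followed in whole-liver RNA-seq counts. The 10 genes Ugt1a1, Ugt2a3, Ugt2b1, Ugt2b5, Ugt2b34, Ugt2b35, Ugt2b36, Ugt2b38, Ugt3a1 and Ugt3a2 were taken by symbol from the Ugt1a, Ugt2a, Ugt2b and Ugt3a families, out of 55418 genes in the count files. Another 12 genes named Ugt in the files served for comparison. The study set mice with Mboat7 deleted in hepatocytes (KO) beside Mboat7 wild-type mice (WT), and asked which transcripts are deregulated at steady state on chow and under a high fat, methionine low, choline deficient diet (HFMCD). There were 6 WT and 7 KO libraries from chow mice aged 10 weeks, and 4 WT and 4 KO libraries from mice put on HFMCD at 6 to 8 weeks of age and kept on it for 6 weeks. The labels name neither the deleter strain nor the deleted exons nor the sex. Each library's title carries a number of its own, but the labels do not say outright that the libraries of a group came from separate animals, and p-values measure the spread between these libraries. Diet goes together with age and with the number series in the titles (low numbers on HFMCD, high ones on chow), and cannot be told apart from them.

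These enzymes sit in the membrane of the endoplasmic reticulum and join a sugar, mostly glucuronic acid taken from UDP-glucuronate, to bilirubin, steroids, bile acids, drugs and dietary phenols. The conjugates are water soluble and leave the hepatocyte into bile or blood. The liver is the main site of this step for bilirubin, for which UGT1A1 is the enzyme, and its Ugt genes are known targets of the xenobiotic receptors CAR, PXR and AhR, of NRF2 and of the hepatocyte factor HNF4. The UGT2B enzymes take steroids, bile acids and many drugs, while the human counterparts of the Ugt3a genes use N-acetylglucosamine, glucose or xylose in place of glucuronic acid.

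Totals ran from 17502231 to 25822972 counts per library. The 10 hepatocyte genes of the marker list, among them Alb and Ttr, summed to 98420 to 140500 CPM (reads scaled to library size) in every library. Kidney markers, which matter because kidney carries several Ugt2b transcripts, summed to at most 0.327 CPM, with Slc34a1 at 0 in every library, and the intestinal genes Sis and Reg3g were at 0 in every library. Xist stood above 100 CPM in all 21 libraries, at 118.5 CPM or more, and 4 Y-linked genes summed to at most 0.446 CPM. Mboat7 was lower in KO than in WT by 0.76 on the log2 scale on chow (edgeR adjusted p = 3.9e-06) and by 0.94 on HFMCD (edgeR adjusted p = 7.5e-06). WT chow replicates 3 and 5 and KO chow replicates 1 and 7 carried the mucosal transcript Dmbt1 at 27.6 to 95.6 CPM, against at most 0.596 CPM elsewhere, and results that move without these 4 libraries are given both ways. KO chow replicate 7 also carried the muscle transcript Ttn at 331 CPM, against at most 0.732 CPM elsewhere, and its 5 skeletal muscle genes summed to 1193 CPM. Libraries on the 2 diets differed in composition: mitochondrial transcripts took 3.70% to 4.60% of the counts on chow and 5.18% to 6.995% on HFMCD, and the nuclear RNA Malat1 stood at 1196 to 1766 CPM on chow and 259.6 to 530.1 CPM on HFMCD, without overlap. Their part in the diet values was not tested.

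Positions are from GENCODE release M21 on GRCm38. Of the 10 genes, 6 lie in the Ugt2b cluster of chromosome 5, between 86889767 (Ugt2b34) and 87424203 (Ugt2b38), with Ugt2a3 among them at 87324972 to 87337195. Ugt3a1 (9276888 to 9315032) and Ugt3a2 (9335550 to 9370955) neighbour each other on the plus strand of chromosome 15. Ugt1a1 is on chromosome 1 (88211959 to 88218997, plus strand), in a locus where each of 9 Ugt1a genes has its own first exon and all share the later exons.

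Sequence likeness decides how far reads can be told apart within this family. Of the 2224 exon bases of Ugt1a1, 1311 are also exon of other Ugt1a genes and 922 are exon of Gm20528 on the other strand, so that 385 bases (17.3%) are its own. The other 9 genes share no exon base with another annotated gene. The coding sequence of Ugt2b38 was 97.0% identical to that of Ugt2b5, Ugt2b37 was 94.7% identical to Ugt2b5, and Ugt3a1 was 93.2% identical to Ugt3a2. Exact copies of 100 bases were common only for some of these: 24.7% of the 100-base windows of Ugt2b5 and 24.2% of those of Ugt2b38 recur in another gene, against 0 for Ugt2b1, Ugt2b35, Ugt2b36, Ugt3a1 and Ugt3a2. With 50-base windows the shares were 41.7% for Ugt2b5, 37.4% for Ugt2b38, 7.6% for Ugt3a1, 7.0% for Ugt3a2 and 4.55% for Ugt2a3. For the other Ugt1a genes, 35.7% (Ugt1a10) to 49.7% (Ugt1a6a) of the exon bases are their own. The coding sequences of Ugt1a6a and Ugt1a6b were 98.4% identical. Values of Ugt1a1, the other Ugt1a genes, Ugt2b5, Ugt2b37 and Ugt2b38 are therefore uncertain where the counting could have split reads. To a smaller degree this also holds for Ugt3a1, Ugt3a2 and Ugt2a3. How the authors treated such reads is not given in the sources used here.

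The upstream sequences of Ugt2b5, Ugt2b37 and Ugt2b38 are shown because these are the Ugt2b genes that fell on HFMCD in both genotypes, as described further on, and because they resemble each other more than any other pair of Ugt2b genes. Each is the 250 bases before the RefSeq start site (GRCm38.p6), printed 5′ to 3′ on the strand of the gene. Capitals mark the 62-base run that all 3 hold letter for letter.
Ugt2b5, chr5:87140341-87140590, minus strand: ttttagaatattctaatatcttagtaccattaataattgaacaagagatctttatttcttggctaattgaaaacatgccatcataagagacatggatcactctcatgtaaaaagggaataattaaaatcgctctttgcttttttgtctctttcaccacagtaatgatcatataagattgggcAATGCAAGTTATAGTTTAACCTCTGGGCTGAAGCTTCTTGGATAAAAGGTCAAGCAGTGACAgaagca
Ugt2b37, chr5:87254789-87255038, minus strand: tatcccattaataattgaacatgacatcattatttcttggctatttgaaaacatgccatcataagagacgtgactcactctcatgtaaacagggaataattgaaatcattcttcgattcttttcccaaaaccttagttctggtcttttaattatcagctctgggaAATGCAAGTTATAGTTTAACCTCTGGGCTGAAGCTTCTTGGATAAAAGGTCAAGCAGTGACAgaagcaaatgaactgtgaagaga
Ugt2b38, chr5:87424204-87424453, minus strand: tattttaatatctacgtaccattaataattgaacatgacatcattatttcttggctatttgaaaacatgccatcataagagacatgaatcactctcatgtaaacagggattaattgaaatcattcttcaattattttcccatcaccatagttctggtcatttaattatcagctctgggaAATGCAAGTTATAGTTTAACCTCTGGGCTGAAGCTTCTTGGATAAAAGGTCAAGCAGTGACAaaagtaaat

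The run starts at position -68 before the start site in Ugt2b5, at -85 in Ugt2b37 and at -71 in Ugt2b38. It was found in 3 of the 32851 RefSeq promoter windows of 300 bases, which are these. Over the aligned upstream bases Ugt2b37 and Ugt2b38 were 94.1% identical, Ugt2b38 and Ugt2b5 88.3%, and Ugt2b37 and Ugt2b5 87.6%, while the next Ugt2b pair, Ugt2b36 and Ugt2b5, reached 69.6%. RefSeq windows were at hand for 9 of the 10 genes, all but Ugt3a2. This likeness was looked for after the values were seen.

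Levels of different genes were compared as CPM per kilobase of exon (the GENCODE exons merged). In WT chow livers Ugt2b5 (323 CPM per kilobase ± 53.2, SD, n = 6) and Ugt2b36 (288 ± 47.5, SD, n = 6) led, and their libraries overlapped. A gap without overlap separated them from Ugt3a2 (125 ± 15.6, SD, n = 6), Ugt1a1 (112 ± 35.4, SD, n = 6), Ugt2b34 (112 ± 27.5, SD, n = 6), Ugt2a3 (83.4 ± 11.6, SD, n = 6), Ugt2b1 (68.2 ± 11.9, SD, n = 6) and Ugt2b35 (61.0 ± 9.70, SD, n = 6), each of which overlapped its neighbour in that order. Ugt3a1 (13.9 ± 4.05, SD, n = 6) and Ugt2b38 (0.592 ± 0.291, SD, n = 6) followed, each with no overlap with the gene above. Ugt1a1 would lead all 10 at 646 CPM per kilobase if only the 385 bases of no other gene had been counted, so that its rank depends on how shared exons were treated.

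The order changed at the top with diet. Ugt2b36 stood above Ugt2b5 on HFMCD in both genotypes, at 282 against 228 CPM per kilobase in WT and 246 against 208 in KO, although the libraries of the pair overlapped in all 4 groups. Ugt2b5 took 20.7% of the summed CPM of the 10 genes in WT chow and 21.6% in KO chow, at 18.3% to 24.9% over the chow libraries. On HFMCD its share was 15.1% in WT and 16.0% in KO, at 13.1% to 17.6%, below every chow library. Ugt2b34 took 16.4% in WT chow, 18.6% in KO chow, 19.6% in WT HFMCD and 21.5% in KO HFMCD. The 10 genes together summed to 2907 CPM ± 420.1 (SD, n = 6) in WT chow, 3368 ± 215 (SD, n = 7) in KO chow, 2778 ± 296 (SD, n = 4) in WT HFMCD and 2408 ± 316 (SD, n = 4) in KO HFMCD.

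**Figure D1:**
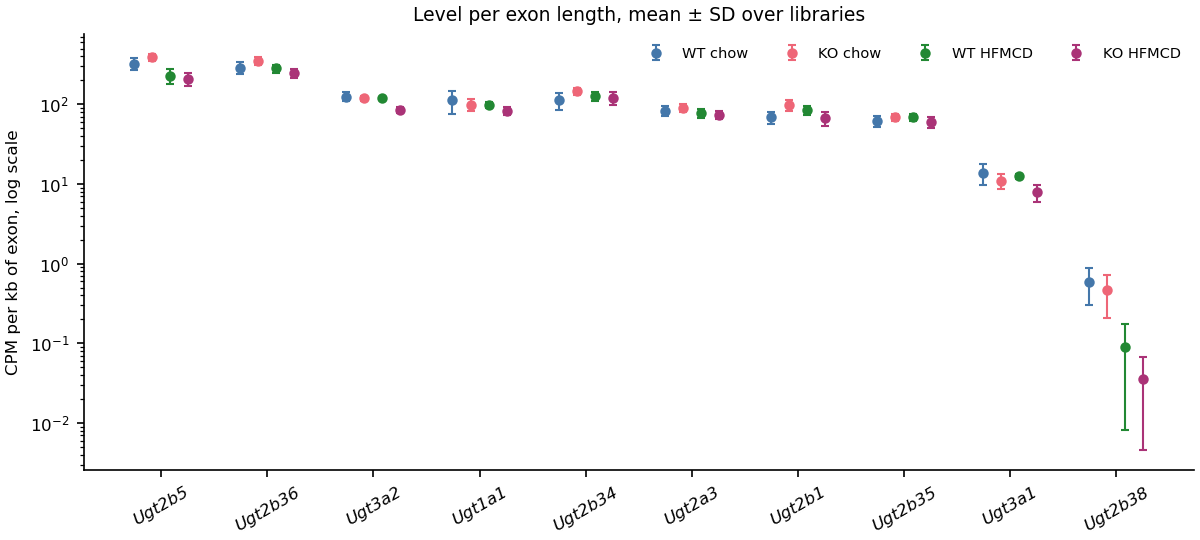
Mean level of each gene in CPM per kilobase of exon (log axis), with bars of 1 SD over the 6 WT chow, 7 KO chow, 4 WT HFMCD and 4 KO HFMCD libraries. Ugt2b5 and Ugt2b36 lead in every group, 6 genes lie close together below them, and Ugt3a1 and Ugt2b38 are lowest in every group.

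Setting KO beside WT on chow asks what loss of hepatocyte Mboat7 does to these genes at steady state. Ugt2b1 was higher in KO, and it was the single gene of the 10 whose KO libraries all lay above the WT libraries, which held for 0.236% of all genes tested. For 0 of the 10 they all lay below, against 0.421%. Its level was 130.0, 169 and 215 CPM (lowest, median and highest of 6) in WT and 221, 229 and 329 CPM (of 7) in KO. The means were 175.5 CPM ± 30.6 (SD, n = 6) and 255 CPM ± 40.3 (SD, n = 7), a log2 ratio of 0.54 (SE 0.13, adjusted p = 0.0300 by edgeR). In whole liver, more transcript per cell and more cells carrying it cannot be told apart.

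So 1 of the 10 was called higher on chow, against 0.561% of all 15677 genes tested, and 0 were called lower, against 1.61% (2.17% in either direction). At an unadjusted p under 0.05, 4 of the 10 passed, beside 2806 of all 15677 genes, and those 4 were higher and in the Ugt2b cluster. DESeq2 and limma-voom each called 1 higher and 0 lower. DESeq2 gave Ugt2b1 an adjusted p = 0.0038, and the adjusted p over 10 alternative fits ran from 0.0038 to 0.079. The call was lost when the chow libraries were fitted alone (log2 fold change 0.55, edgeR adjusted p = 0.076), with scaling on hepatocyte genes (0.51, edgeR adjusted p = 0.079), and without any of WT chow replicates 4 and 6 and KO chow replicates 1, 3, 4 and 6 (lowest value 0.48, highest edgeR adjusted p = 0.077).

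The other large Ugt2b transcripts were also higher in KO on chow on average without passing the test. Ugt2b34 stood at 327.2, 479 and 688 CPM (lowest, median and highest) in WT and 527, 635 and 712 CPM in KO, a log2 ratio of 0.38 (SE 0.13, adjusted p = 0.126 by edgeR). Its groups overlapped through WT chow replicate 3, a Dmbt1-rich library and the highest WT value. Without that library edgeR called it (0.51, adjusted p = 0.0175), and without all 4 Dmbt1-rich libraries it was also called (0.56, edgeR adjusted p = 0.0492). Ugt2b36 stood at 486, 565 and 744 CPM in WT and 650.4, 703 and 853 CPM in KO (0.28, SE 0.10, edgeR adjusted p = 0.146), and it too was called without WT chow replicate 3 (0.36, edgeR adjusted p = 0.0464). Ugt2b5 stood at 441, 605 and 702 CPM in WT and 619, 727 and 828 CPM in KO (0.28, SE 0.12, edgeR adjusted p = 0.229). Ugt2b35 differed by 0.17 (SE 0.10) and Ugt2a3, whose human counterpart acts on bile acids, by 0.12 (SE 0.10).

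The remaining 4 genes, Ugt1a1, Ugt3a1, Ugt3a2 and Ugt2b38, had negative values on chow, and 0 of them passed the test. Ugt1a1, the bilirubin enzyme gene, stood at 179.5, 234 and 374 CPM in WT and 158, 215 and 263 CPM in KO, a log2 ratio of -0.17 (SE 0.15, adjusted p = 0.599 by edgeR). Its highest library was WT chow replicate 3, and without the 4 Dmbt1-rich libraries the value was 0.04. Ugt3a1 lay between 29.5 and 55.4 CPM (mean 37.05) in WT and between 22.04 and 39.5 CPM (mean 29.2) in KO (-0.34, SE 0.17, edgeR adjusted p = 0.289), again with its 2 highest WT values in WT chow replicates 3 and 5. Ugt3a2 differed by -0.08 (SE 0.08), and by 0.0175 without the 4 Dmbt1-rich libraries, and Ugt2b38 by -0.33 (SE 0.40). Markers of other cells, all with reads, were also summed on chow. The 10 cholangiocyte genes gave 46.8 to 86.4 CPM in WT livers against 49.2 to 127.8 CPM in KO livers. The 8 macrophage genes gave 233 to 627 CPM against 336.5 to 472 CPM, and the 8 stellate cell genes 58.9 to 105.5 CPM against 67.8 to 275.5 CPM. The list of 6 intestinal genes, of which Sis and Reg3g were at 0, summed to 148 to 239 CPM in WT chow and 97.5 to 133 CPM in KO chow, with Fabp2, which liver also expresses, called lower in KO (-1.14, edgeR adjusted p = 0.0034). Their part in the Ugt values was not tested. The median log2 fold change of the 10 was 0.14, with 6 positive, beside 0.01 over all genes tested.

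**Figure D2:**
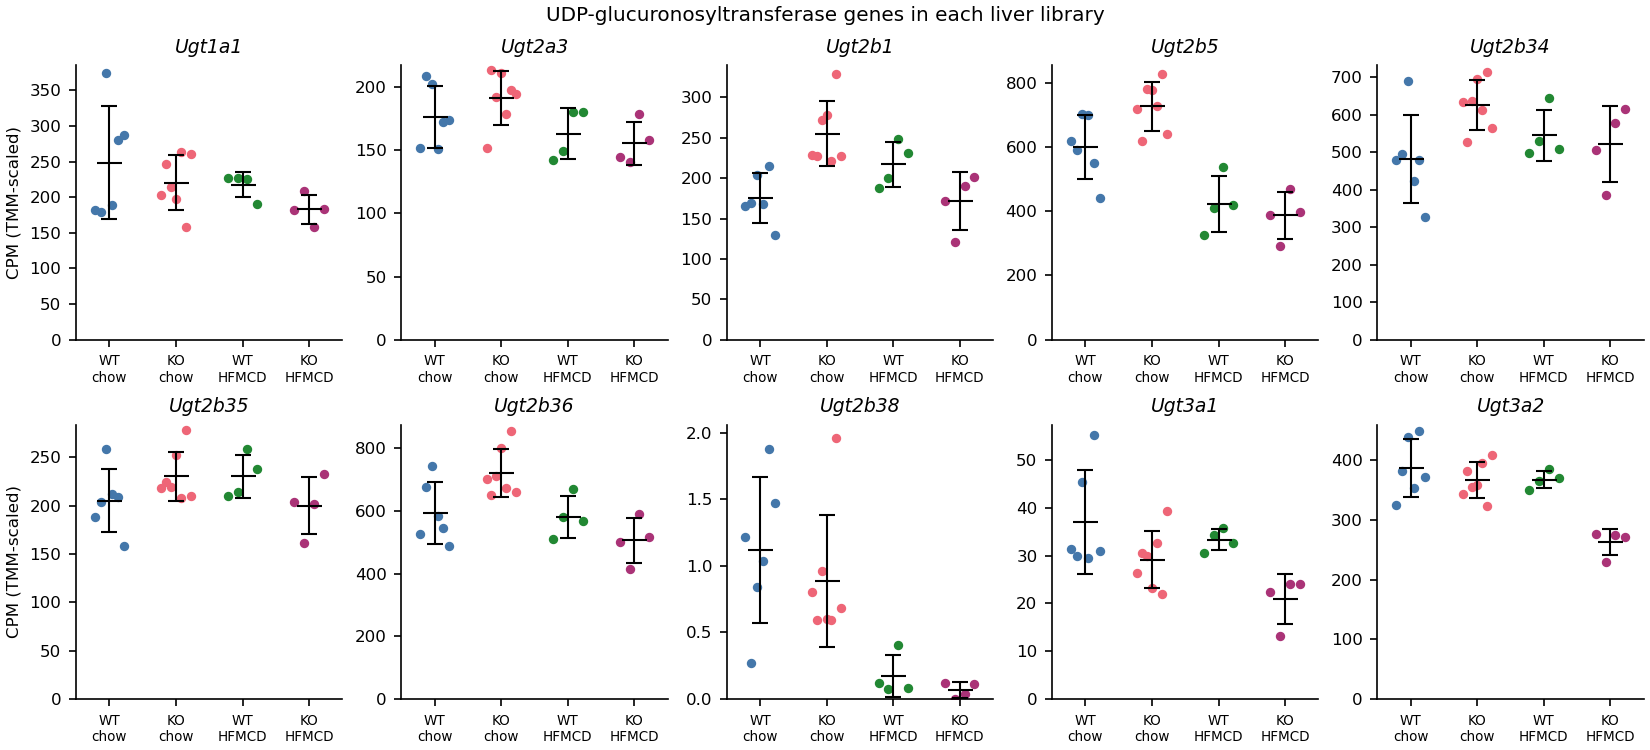
CPM of each of the 10 genes in every library (points), with the group mean and 1 SD (bars), for WT chow, KO chow, WT HFMCD and KO HFMCD. The KO chow points of Ugt2b1 lie above all WT chow points, those of Ugt3a2 in KO HFMCD lie below all other groups, and Ugt2b38 is near 0 on HFMCD.

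On HFMCD the KO livers held less Ugt3a2 than the WT livers. The WT libraries gave 349.6, 366, 385 and 370.0 CPM and the KO libraries 277, 230.0, 275 and 272 CPM. Every KO value lay below every WT value, and below every chow value too. The means were 368 CPM ± 14.6 (SD, n = 4) and 263 CPM ± 22.4 (SD, n = 4), a log2 ratio of -0.48 (SE 0.10, adjusted p = 0.0433 by edgeR). Of all genes tested 0.0957% were called lower here, 0.223% higher and 0.319% in either direction, and of the 10 genes 1 was called lower and 0 higher by each of edgeR, DESeq2 and limma-voom. Of the 10, 3 had an unadjusted p under 0.05, beside 1562 of all 15677 genes, and those 3 were lower.

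The size of the Ugt3a2 difference changed little between fits while its call did not hold in all of them. The value ran from -0.51 to -0.42 when each of the 8 HFMCD libraries was left out in turn, and edgeR's adjusted p was then 0.060 to 0.169, so that the call was lost without any one of WT HFMCD replicates 1 to 4 or KO HFMCD replicates 1 to 4. It was called in 8 of 10 alternative fits (adjusted p from 7.6e-04 to 0.249), the exceptions being upper-quartile scaling (-0.46, edgeR adjusted p = 0.051) and scaling on hepatocyte genes (-0.33, edgeR adjusted p = 0.249).

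Ugt3a1, the neighbour of Ugt3a2, gave 30.7, 34.4, 35.7 and 32.7 CPM in WT HFMCD and 22.5, 13.2, 24.0 and 24.1 CPM in KO HFMCD. These groups did not overlap either, and KO HFMCD replicate 2 was the lowest. The log2 fold change was -0.67 (SE 0.21) and did not pass (edgeR adjusted p = 0.224). Without the 4 Dmbt1-rich chow libraries, which are in neither HFMCD group but enter the filter, the scaling and the shared estimate of the spread, edgeR called it at -0.67 (adjusted p = 0.0311), and calls over all genes rose from 50 to 175. Groups that do not overlap downward were found for 3.66% of all genes tested in this comparison, and for 2 of the 10.

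The remaining 8 genes overlapped between genotypes on HFMCD. Ugt2b1, which was higher in KO on chow, gave 188, 200.6, 249 and 231 CPM in WT HFMCD and 171.5, 121, 191 and 202 CPM in KO HFMCD, a log2 ratio of -0.34 (SE 0.16, adjusted p = 0.481 by edgeR). Ugt1a1 gave 226.5, 227, 225.5 and 191 CPM in WT and 182, 208, 158 and 184 CPM in KO (-0.25, SE 0.20, edgeR adjusted p = 0.744). Ugt2b35 and Ugt2b36 each differed by -0.20 (SE 0.13), Ugt2b5 by -0.13 (SE 0.15), Ugt2a3 by -0.07 (SE 0.12) and Ugt2b34 by -0.06 (SE 0.16). The low transcript Ugt2b38 had the value farthest from 0 of the 10 with the widest error (-1.30, SE 0.81, edgeR adjusted p = 0.639).

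All 10 values were negative on HFMCD with a median of -0.23, beside 0.01 over all genes tested. The 10 hepatocyte marker genes had a median of -0.18 with 9 negative, and 0 of them were called. With libraries scaled on those hepatocyte genes, which raised the median of all genes by 0.14 and turned 35 higher and 15 lower calls over all genes into 85 and 8, Ugt2a3 (0.07), Ugt2b5 (0.02) and Ugt2b34 (0.09) were positive. Among markers of other liver cells, cholangiocyte genes were called for genotype on this diet. All 10 had reads, and their sum was 215.0 to 256 CPM in WT HFMCD and 575 to 826 CPM in KO HFMCD, with 6 of the 9 tested called higher and a median of 1.57. The 8 macrophage genes summed to 2067 to 2447 CPM and 2034 to 2600.0 CPM, and the 8 stellate cell genes to 496 to 622 CPM and 684 to 772 CPM. Of these 2 lists edgeR called 0 genes, with medians of 0.001 and 0.37. Of 6 endothelial genes 0 were called, and their median was -0.21. Their part in the Ugt values was not tested.

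**Figure D3:**
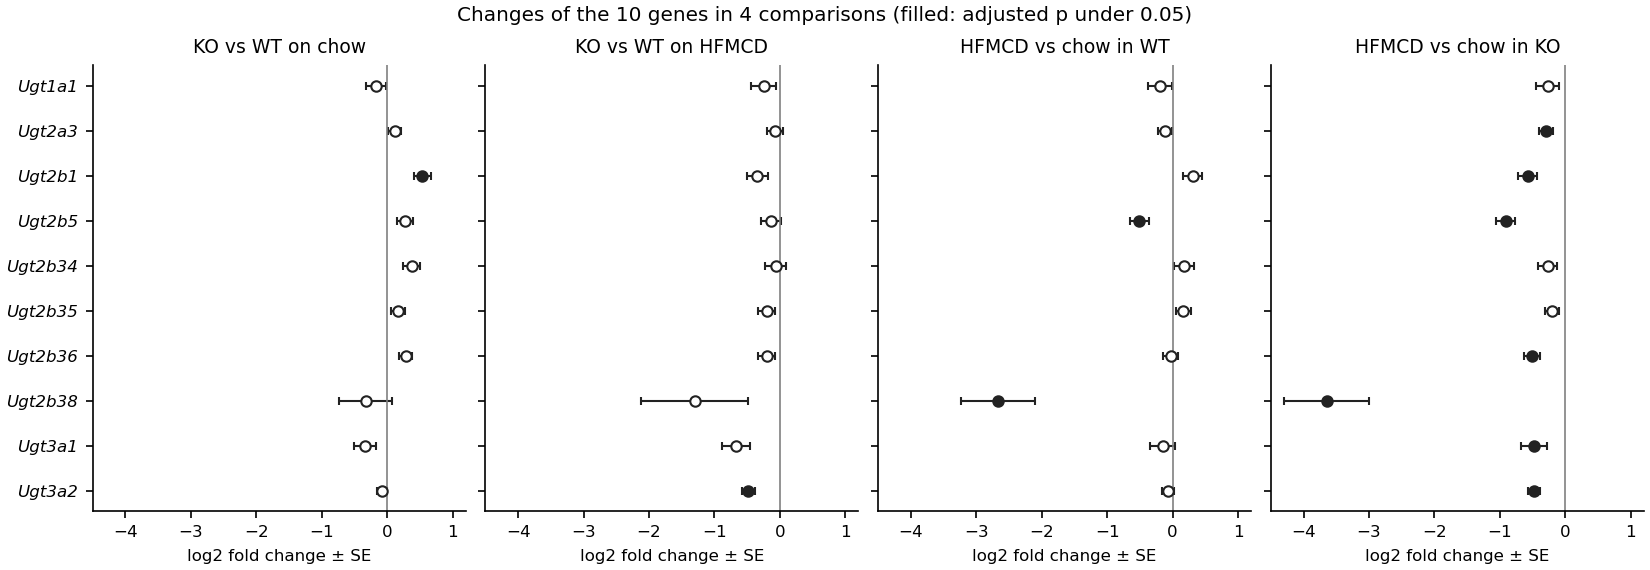
Log2 fold change of each of the 10 genes with bars of 1 SE in 4 comparisons, with filled points for an edgeR adjusted p under 0.05. Filled points are Ugt2b1 for KO on chow, Ugt3a2 for KO on HFMCD, Ugt2b5 and Ugt2b38 for diet in WT, and 7 genes for diet in KO.

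HFMCD against chow in WT livers showed lower Ugt2b5 and Ugt2b38 and no call for the other 8. In this comparison 62.5% of all genes tested were called, 29.0% higher and 33.6% lower, so that 2 of 10 called lower and 0 called higher lie below the background share. Of the 10, 1 gene was higher at an unadjusted p under 0.05, Ugt2b1, which DESeq2 and limma-voom called. Ugt2b5 gave 325, 412, 537.5 and 419 CPM on HFMCD against the chow values above. The means were 423 CPM ± 87.4 (SD, n = 4) and 601 CPM ± 98.8 (SD, n = 6), a log2 ratio of -0.51 (SE 0.14, adjusted p = 0.0037 by edgeR), and WT HFMCD replicate 3 overlapped the chow range. It was called with each library left out in turn and lost its call with scaling on hepatocyte genes (-0.14, edgeR adjusted p = 0.394).

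Ugt2b38 was a low transcript in every group. Its reads numbered 5 to 37 per library in WT chow, 10 to 44 in KO chow, 2 to 10 in WT HFMCD and 0 to 3 in KO HFMCD. Summed over libraries and set against the library totals, there were 17 reads on HFMCD and 134 on chow in WT, 6.61 times fewer (exact Clopper-Pearson 95% interval 3.98 to 11.7, for counting error only). In KO there were 7 and 129 reads, 13.8 times fewer (6.52 to 35.0). The log2 fold change was -2.67 in WT (SE 0.57, edgeR adjusted p = 2.8e-04) and -3.65 in KO (SE 0.65, edgeR adjusted p = 2.8e-05), and both were called in all 10 alternative fits and with each library left out in turn.

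Reads of Ugt2b38 were set against those of its far more abundant near copy Ugt2b5. They came to 0.198% of the Ugt2b5 reads in WT chow (0.0451% to 0.341% over libraries), 0.119% in KO chow (0.0770% to 0.237%), 0.0379% in WT HFMCD (0.0190% to 0.0751%) and 0.0167% in KO HFMCD (0% to 0.0307%). The share was lower on HFMCD, with overlapping libraries in WT and none in KO. On HFMCD it rests on 2 to 10 Ugt2b38 reads per library in WT and 0 to 3 in KO. Whether reads of Ugt2b5 were counted as Ugt2b38 was not tested. Ugt2b37 also fell. Its upstream sequence was shown because of that fall, which is therefore no separate observation on the shared run. WT chow livers held 6.99 CPM ± 2.38 (SD, n = 6) of Ugt2b37 and WT HFMCD livers 2.57 CPM ± 1.198 (SD, n = 4), a change of -1.44 (SE 0.33, edgeR adjusted p = 6.2e-04). KO chow livers held 8.08 CPM ± 1.97 (SD, n = 7) and KO HFMCD livers 1.02 CPM ± 0.453 (SD, n = 4), a change of -2.97 (SE 0.36, edgeR adjusted p = 1.9e-07).

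In KO livers HFMCD against chow gave 7 called lower of the 10 and 0 higher, in a comparison in which 69.7% of all genes tested were called, 36.0% lower and 33.7% higher. Ugt2b5 gave 389, 292, 470.1 and 397 CPM in KO HFMCD, all below the lowest KO chow value of 619 CPM, a log2 ratio of -0.91 (SE 0.14, adjusted p = 5.1e-06 by edgeR). Ugt2b1 fell below all its KO chow values (-0.57, SE 0.14, edgeR adjusted p = 0.0012). Ugt2b36 gave 501, 416, 591 and 518 CPM, again below every KO chow value (-0.51, SE 0.12, edgeR adjusted p = 5.2e-04), and so did Ugt3a2 (-0.48, SE 0.09, edgeR adjusted p = 6.1e-05). With Ugt2b38, these are the 5 of 10 whose KO HFMCD libraries all lay below the KO chow libraries, which held downward for 27.3% of all genes tested. For the WT libraries it held for 0 of the 10 downward, against 24.1%, and 0 upward, against 23.2%.

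Ugt3a1 and Ugt2a3 were called lower in KO with overlapping libraries. Ugt3a1 fell by 0.48 (SE 0.19, edgeR adjusted p = 0.0334), and its call was lost without KO HFMCD replicate 2 or any of KO chow replicates 2, 3, 5 and 7 (value nearest to 0, -0.30; highest adjusted p = 0.154). Ugt2a3 gave 145, 141, 178 and 158 CPM against 151, 195 and 213 CPM (lowest, median and highest) in KO chow, a log2 ratio of -0.30 (SE 0.11, adjusted p = 0.0170 by edgeR), lost without KO HFMCD replicates 1 or 2 or KO chow replicate 2 (highest adjusted p = 0.069). Ugt1a1 (-0.27, SE 0.17), Ugt2b34 (-0.27, SE 0.15) and Ugt2b35 (-0.20, SE 0.11) did not pass. Leaving out KO HFMCD replicate 4 gave Ugt2b35 a call (edgeR adjusted p = 0.0494).

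The fall in KO depends on what the libraries are scaled on. Most hepatocyte marker genes were themselves lower on HFMCD: edgeR called 6 of 10 lower in WT with a median of -0.38, and 8 of 10 in KO with a median of -0.60, 0 being called higher in either. Those called in WT were Apoa1, Apoa2, Apoc3, Apoh, F2 and Serpinc1. Ttr and Trf were called in KO only, and Alb and Ahsg in neither. How far a scale set on these genes follows hepatocyte content was not tested. Scaling on all 10 raised the median of all genes by 0.37 in WT and 0.53 in KO. Calls over all genes, 4541 higher and 5262 lower in WT and 5284 higher and 5636 lower in KO, became 7389 higher and 2553 lower in WT and 9020 higher and 2523 lower in KO. Relative to the 10 hepatocyte marker genes, 2 of the 10 Ugt genes were called lower in KO, Ugt2b5 (-0.38, edgeR adjusted p = 0.0163) and Ugt2b38, and Ugt2b35 was called higher (0.33, edgeR adjusted p = 0.0252). Ugt2b1 was then at -0.03, Ugt2b36 at 0.02, Ugt3a1 at 0.05 and Ugt3a2 at 0.05. In WT, Ugt2b38 alone was called lower on that scale, and 5 were called higher, namely Ugt2b1 (0.67), Ugt2b34 (0.53), Ugt2b35 (0.53), Ugt2b36 (0.33) and Ugt3a2 (0.28). The sums of cholangiocyte, macrophage and stellate cell genes given above were higher in every HFMCD library than in every chow library. Their part in the diet values was not tested.

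Of the 10, Ugt2b1 had the smallest p for a diet response that differs between genotypes. In WT its value for HFMCD against chow was 0.31 (SE 0.14, edgeR adjusted p = 0.068), and DESeq2, limma-voom, upper-quartile scaling, the fit to WT libraries alone and the fit without the 4 Dmbt1-rich libraries each called it higher (0.29 to 0.45, adjusted p from 0.0137 to 0.0476), as did leaving out WT HFMCD replicate 1 or WT chow replicates 3 or 5. In KO it fell by 0.57. Its KO effect on HFMCD minus that on chow was -0.88 (SE 0.20, 95% interval -1.28 to -0.48, unadjusted p = 2.4e-04, edgeR adjusted p = 0.126). DESeq2 called this difference (-0.89, adjusted p = 0.0152), and edgeR called it without KO chow replicates 1 and 7 (-0.94, adjusted p = 0.0449) and without all 4 Dmbt1-rich libraries (-1.09, adjusted p = 0.0200). These were 3 of 9 alternative fits, and limma-voom was among those that did not call it. Over the 9 fits the value ran from -1.09 to -0.70, with adjusted p from 0.0152 (DESeq2) to 0.171. With any 1 library left out edgeR gave adjusted p-values from 0.083 to 0.234.

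For this difference edgeR called 0 of 15677 genes, a share of 0%, with 1581 genes at an unadjusted p under 0.05, while DESeq2 called 97 and limma-voom 10. All 10 Ugt genes had a negative value, with a median of -0.40 beside 0.00 over all genes tested and -0.16 over the hepatocyte genes, and 5 of the 10 had an unadjusted p under 0.05. After Ugt2b1 came Ugt2b36 (-0.48, SE 0.17, edgeR adjusted p = 0.304), Ugt2b34 (-0.44, SE 0.21, edgeR adjusted p = 0.481), Ugt3a2 (-0.40, SE 0.13, edgeR adjusted p = 0.251) and Ugt2b35 (-0.37, SE 0.16, edgeR adjusted p = 0.434). Ugt1a1 had the value nearest to 0 (-0.07, SE 0.25), and it was 0.11 with scaling on hepatocyte genes. These values share libraries with the 4 comparisons above and are no separate evidence.

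The other tested genes of the Ugt1a locus moved with diet in opposite directions, while Ugt1a1 was not called in either genotype. These genes share their later exons, so how far each value belongs to the gene named depends on how shared reads were counted. Ugt1a6b, of the Ugt1a6 group that takes flat phenols, rose in both genotypes. Its mean was 12.5 CPM ± 2.69 (SD, n = 6) in WT chow against 25.2 CPM ± 1.78 (SD, n = 4) in WT HFMCD (1.02, SE 0.13, edgeR adjusted p = 6.1e-07). In KO chow it was 12.9 CPM ± 1.79 (SD, n = 7) against 21.3 CPM ± 2.96 (SD, n = 4) in KO HFMCD (0.73, SE 0.13, edgeR adjusted p = 2.9e-05). Its HFMCD libraries all lay above its chow libraries. Ugt1a7c also rose, at a level of 0.436 to 1.65 CPM on chow and 1.58 to 2.58 CPM on HFMCD (1.22 in WT and 1.23 in KO).

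Ugt1a5 fell in both genotypes. WT chow livers averaged 26.8 CPM ± 12.2 (SD, n = 6) and WT HFMCD livers 11.2 CPM ± 2.73 (SD, n = 4), a change of -1.25 (SE 0.27, edgeR adjusted p = 4.6e-04). KO chow livers averaged 33.7 CPM ± 4.86 (SD, n = 7) and KO HFMCD livers 13.0 CPM ± 3.58 (SD, n = 4), a change of -1.38 (SE 0.26, edgeR adjusted p = 1.1e-04). With scaling on hepatocyte genes Ugt1a5 was still called in both, and the falls of Ugt1a9 and Ugt1a10 described next were not. Ugt1a9 fell as well (-0.75, SE 0.30, edgeR adjusted p = 0.0368 in WT and -0.91, SE 0.29, edgeR adjusted p = 0.0100 in KO), as did the low transcripts Ugt1a2 (-2.81 and -3.20) and Ugt1a10 (-1.64 and -1.54), each under 1 CPM. WT chow replicate 3 held the highest value of Ugt1a1 (374 CPM), Ugt1a5 (49.2 CPM) and Ugt1a9 (66.1 CPM) alike. Gm20528, which lies across the locus on the other strand and covers 922 exon bases of Ugt1a1, had 218 to 473 reads per library on chow and 2 to 19 on HFMCD, and without a stated strand setting its reads cannot be told apart from those of Ugt1a1.

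**Figure D4:**
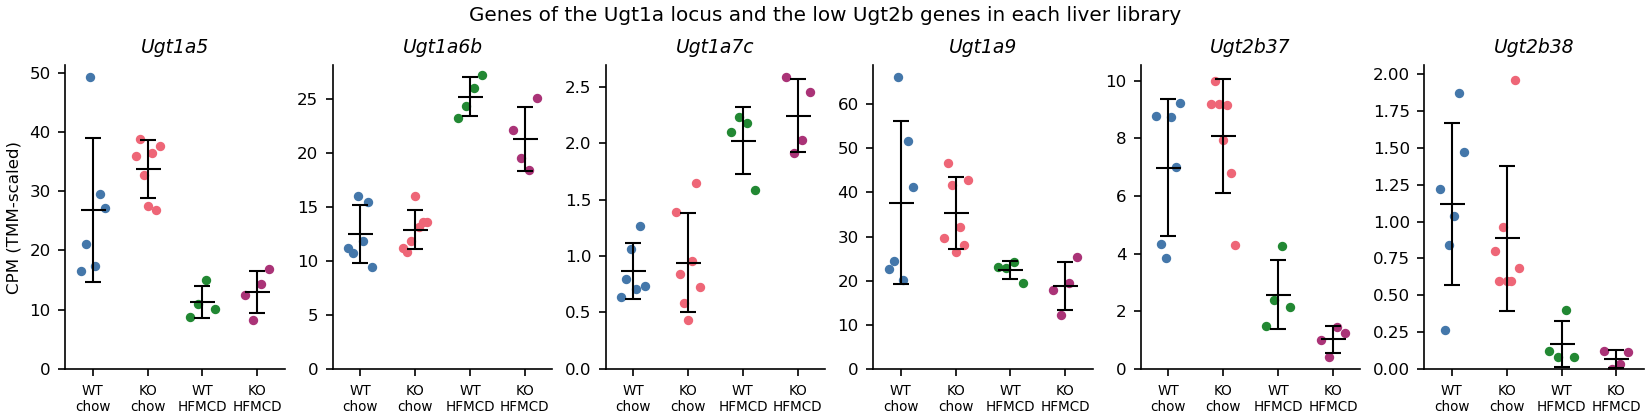
CPM in every library (points) with the group mean and 1 SD (bars) for 4 other genes of the Ugt1a locus and for Ugt2b37 and Ugt2b38. Ugt1a6b and Ugt1a7c lie higher on HFMCD than on chow, and Ugt1a5, Ugt2b37 and Ugt2b38 lie lower on average, with the lowest Ugt2b37 values in KO HFMCD.

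Of the 12 other Ugt genes, 8 passed the filter on low counts. For diet edgeR called 62.5% of all genes tested in WT and 69.7% in KO. It called all 8 of these Ugt genes in both genotypes, 3 higher and 5 lower, and so did DESeq2. In WT limma-voom called 7 of them, without Ugt1a9, which was also not called in a fit to the WT libraries alone (-0.72, edgeR adjusted p = 0.102). The third that rose was Ugt8a, the galactosyltransferase of sphingolipid synthesis, at 0.0976 to 0.320 CPM in WT chow, 0.0496 to 0.463 CPM in KO chow, 0.288 to 0.625 CPM in WT HFMCD and 1.05 to 2.08 CPM in KO HFMCD (1.37 and 2.38 for diet). For KO against WT edgeR called 0 of the 8 on either diet, with 1 at an unadjusted p under 0.05 on chow and 2 on HFMCD, while DESeq2 called 0 and 2 of them and limma-voom 0 and 1. Those on HFMCD were Ugt8a (1.64, SE 0.39, edgeR adjusted p = 0.078, DESeq2 adjusted p = 0.0131) and Ugt2b37 (-1.33, SE 0.38, edgeR adjusted p = 0.164, DESeq2 adjusted p = 0.0240), and for both the libraries of the genotypes did not overlap. Ugt1a6a, Ugt1a8, Ugt2a1 and Ugt2a2 did not pass the filter, and Ugt2a1 and Ugt2a2, known from the nasal epithelium, had 0 reads in every library. Of the 2570 exon bases of Ugt2a1 only 30 belong to no other annotated gene, and of the 2541 of Ugt2a2 only 140. If reads with several targets were dropped, 0 reads would not show that these transcripts were absent.

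Within groups, 9 of the 10 genes were compared with each other, Ugt2b38 being too low. Pearson's r of deviations from the group means over the 21 libraries is given as a description, since libraries share depth and scaling, with the value without the 2 libraries farthest from the median of the first gene named. Among Ugt2b1, Ugt2b5, Ugt2b34, Ugt2b35 and Ugt2b36, r ran from 0.75 (Ugt2b1 with Ugt2b5) to 0.89 (Ugt2b1 with Ugt2b35), and from 0.60 to 0.85 without 2 libraries. Ugt3a1 and Ugt3a2 gave 0.88 (0.84 without 2). Ugt1a1 gave 0.63 with Ugt3a2 (0.48 without 2) and 0.51 with Ugt3a1 (0.38 without 2). Between Ugt1a1 and those Ugt2b genes r lay between -0.34 (Ugt2b5) and -0.04 (Ugt2b34), and without 2 libraries between -0.56 (Ugt2b5) and -0.32 (Ugt2b1), with Ugt2b34 at -0.41. Ugt2a3 gave 0.31 (Ugt2b5) to 0.59 (Ugt2b36) with those Ugt2b genes and 0.47 with Ugt3a2.

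Among 10835 genes compared (10836 for Ugt2b38), the gene most like each member was another member for Ugt2b1 and Ugt2b35, which were nearest to each other. Ugt2b34 was closest to Idh1 (r = 0.88), followed by Ugt2b35 (0.87) and Ugt2b36 (0.86), and Ugt2b36 was closest to Aadac (0.87) and Gstm1 (0.86). For Ugt2b35 the next after Ugt2b1 was Gclc (0.89), which encodes the catalytic subunit of glutamate-cysteine ligase. Ugt2b5 was closest to Desi1 (0.91), Ugt3a1 to Mtpn (0.91), Ugt3a2 to Bche (0.90), Ugt1a1 to Pi4ka (0.86), Ugt2a3 to Pecr (0.86) and Ugt2b38 to Etf1 (0.79). With group differences left in, r for these pairs was 0.93, -0.03, -0.04, 0.76, 0.77 and 0.83 in that order. It was then 0.57 for Ugt2b34 with Idh1, 0.60 and -0.14 for Ugt2b36 with Aadac and Gstm1, and 0.83 for Ugt2b35 with Gclc. All of these genes were picked for the size of r among the genes compared.

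The genes that supply and use UDP-glucuronate were followed as a list of 9. On chow Ugdh, which oxidises UDP-glucose to UDP-glucuronate, was higher in KO (0.47, SE 0.11, edgeR adjusted p = 0.0290), the single call of the list, and all 9 values were positive with a median of 0.105. On HFMCD edgeR, DESeq2 and limma-voom each called 0 of the 9 for KO against WT, with 1 at an unadjusted p under 0.05. For diet, edgeR called 5 higher and 2 lower in WT, and 4 higher and 3 lower in KO. Of all genes tested 29.0% were called higher and 33.6% lower in WT, and 33.7% and 36.0% in KO. Ugp2, which makes UDP-glucose (0.64 in WT and 0.69 in KO), Akr1a1, which reduces glucuronate (0.63 and 0.59), Gusb, the lysosomal enzyme that cleaves glucuronides (1.17 and 1.14), and Gulo, of vitamin C synthesis (0.85 and 0.52), rose in both. Slc35d1, which carries UDP-glucuronate into the endoplasmic reticulum (-0.44 and -0.62), and Xylb (-1.03 and -1.15) fell in both. Ugdh was called for diet by edgeR in KO (-0.29, adjusted p = 0.0418), where DESeq2 and limma-voom did not call it, with 0.23 in WT (edgeR adjusted p = 0.112), and the difference was not called.

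Of 8 transporters of conjugates edgeR and DESeq2 called the same 2 lower in KO livers of chow mice and limma-voom 0, namely the canalicular pump gene Abcg2 (-0.38, edgeR adjusted p = 0.0465) and the uptake carrier gene Slco2b1 (-0.38, edgeR adjusted p = 0.0376), and on HFMCD each of the 3 tools called 0, with 2 at an unadjusted p under 0.05 in edgeR. The diet raised Abcg2 (0.67 in WT and 0.99 in KO) and lowered Abcc2, which pumps bilirubin glucuronides into bile (-0.46 and -0.67), and Abcc3, which exports them to blood (-0.39 and -0.42). These 3 were edgeR's and limma-voom's calls in WT, and DESeq2 also called Slco1a4 lower. In KO each tool called 2 higher and 5 lower, Slco1a1 (-3.82), Slco1a4 (-0.83) and Slco1b2 (-0.55) among the latter. Over all genes tested the edgeR shares for diet were 29.0% higher and 33.6% lower in WT, and 33.7% and 36.0% in KO.

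Of 4 genes upstream of bilirubin glucuronidation edgeR called 2 higher and 0 lower for diet in each genotype, where 29.0% of all genes in WT and 33.7% in KO were called higher. Hmox1, the haem oxygenase gene, rose by 2.02 in WT and 1.83 in KO, and Blvra, a biliverdin reductase gene, by 0.95 and 1.11, while edgeR called neither Hmox2 (0.12 and 0.21) nor Blvrb (-0.16 and -0.07). DESeq2 also called Hmox2 in KO, where edgeR gave an adjusted p = 0.051. In KO against WT 0 of these 4 were called on either diet by edgeR, DESeq2 or limma-voom, and 0 had an unadjusted p under 0.05.

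Of 16 genes for regulators of Ugt transcription, edgeR called 1 higher and 9 lower for diet in WT, with a median of -0.36, and 2 higher and 10 lower in KO, with a median of -0.485. The shares over all genes tested were 29.0% higher and 33.6% lower in WT, and 33.7% and 36.0% in KO. Nr1i3, which encodes CAR, fell by 2.17 in WT (edgeR adjusted p = 7.7e-12) and by 2.75 in KO (edgeR adjusted p = 1.0e-13). Of its 4414 exon bases, 3304 are also exon of Tomm40l on the other strand and 1110 are its own. Without a stated strand setting, reads of the 2 genes cannot be told apart there, which limits every value of Nr1i3. Hnf4a fell by 0.89 and 1.19, and Nr1i2, which encodes PXR, by 0.87 and 1.18, while Nfe2l2, which encodes NRF2, rose by 0.57 and 0.49. For KO against WT 0 of 16 were called on either diet by edgeR, with 1 at an unadjusted p under 0.05 on chow and 2 on HFMCD. DESeq2 and limma-voom also called 0 on chow and each called 1 lower on HFMCD, Nr1i3 (-0.55 and adjusted p = 0.107 in edgeR).

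For other targets of these regulators the counts for diet are edgeR's. They stand beside shares over all genes tested of 29.0% higher and 33.6% lower in WT, and 33.7% and 36.0% in KO. Of 10 NRF2 targets 7 were called higher and 0 lower in WT, and 6 higher and 1 lower in KO, with Gsta1 (8.33 and 7.09) and Gsta4 (1.26 and 1.36) among them. Gsta1 stood at 0 to 0.109 CPM on chow and 5.21 to 11.6 CPM on HFMCD, so that the size of its change rests on chow values near 0. Of 6 AhR targets 4 were called higher in WT and 3 in KO, and 0 lower, with Nqo1, which is on both lists, at 0.69 and 0.82. Of 10 CAR and PXR targets 4 were called in each direction in WT, and 2 higher and 4 lower in KO, with Gstm3 (4.78 and 3.94) up and Ces2a (-1.19 and -1.82) down. Of 10 PPARA targets 0 were called higher and 7 lower in WT, and 1 higher and 8 lower in KO, led by Acot1 (-3.04 and -3.73), and DESeq2 also called Pdk4 lower in both. Of 10 genes that differ by sex in mouse liver 2 were called higher and 5 lower in WT, and 1 higher and 7 lower in KO, in libraries that all carried Xist. The female-biased Sult3a1 fell (-7.46 and -9.36), the male-biased Mup20 rose in both genotypes (6.11 in WT), and the male-biased Elovl3 fell in KO (-1.30).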

How the data were processed

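RNA-seq reads of 21 whole-liver samples were counted per gene by the authors, and the deposited files hold raw counts by gene symbol. CASAVA 2.17, STAR 2.6.1d, featureCounts 1.6.1 and GRCm38 are named per the submitters' processing notes. The annotation release, the strand setting and the treatment of reads with several targets are not given in the sources used here.

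Counts were fitted with edgeR 4.0.16 in R 4.3.3. filterByExpr with the 4 groups kept 15677 genes, the 10 members included. TMM scaling and 1 quasi-likelihood model of 4 group means over all libraries were used, with F tests of 5 contrasts. A gene was called where its p, adjusted by Benjamini and Hochberg's method across the genes tested, was under 0.05. SEs were obtained as the size of the log2 ratio over the root of F. CPM used TMM-scaled totals of the tested genes, and log2 CPM a prior count of 2. The fit was tested on simulated data. Of 48 pairs of libraries within groups 0 were identical. Precision is limited by the number of libraries, also for genes with few reads. The exact intervals given for Ugt2b38 cover counting error only and leave out the spread between libraries.

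Alternatives were DESeq2 1.42.0, limma-voom (limma 3.58.1) with quality weights, 3 other scalings, 2 other filters, fits to the compared groups, and leaving out libraries. Members, lists and alternatives were chosen with earlier results of these data known. The text names all 10 members and the other Ugt genes, any gene of the UDP-glucuronate and transport lists, up to 4 genes of each other list by smallest adjusted p, and the genes most correlated with each member (mean of at least 5 CPM in 1 group). Genes of the hepatocyte list, Hmox2, Blvrb, Nfe2l2, Elovl3, Fabp2, Pdk4, Ttn, Malat1 and Gm20528 were also chosen after their values were seen where that rule does not name them. A planned comparison of protein sequences was not run. Coding sequences and RefSeq upstream sequences were compared instead, a choice made after the files were seen. Results on 1 further gene of the regulator list and a search for short elements in the promoter windows are not reported here.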

Additional observations from a re-analysis of the deposited data

Results flagged for a closer look

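Of 40 sets of values (10 genes in 4 groups), 5 held a library far from the rest of its group by Dixon's ratio, and chance gives about 1 in 20. Ugt1a1 in WT HFMCD replicate 4 stood at 191 CPM, below 225.5 to 227 CPM in the other 3 libraries. Ugt2b38 in KO chow replicate 6 stood at 1.96 CPM, above 0.595 to 0.963 CPM in the other 6, and in WT HFMCD replicate 3 at 0.403 CPM, above 0.0782 to 0.124 CPM in the other 3. KO HFMCD replicate 2 was lowest for both Ugt3a genes: Ugt3a1 stood at 13.2 CPM against 22.5 to 24.1 CPM in the other 3, and Ugt3a2 at 230.0 CPM against 272 to 277 CPM.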

How the results depend on the processing

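Over 10 alternative fits, 441 of 489 values kept their direction and their side of the threshold, and so did 592 of 630 with 1 library left out. Log2 ratios that turned direction are listed first.

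With scaling on hepatocyte genes these were, for KO against WT on HFMCD, Ugt2a3 0.0733, Ugt2b5 0.0228 and Ugt2b34 0.0942, and for diet in WT, Ugt1a1 0.149, Ugt2a3 0.2505, Ugt2b36 0.334, Ugt3a1 0.196 and Ugt3a2 0.284. For diet in KO they were Ugt1a1 0.259, Ugt2b34 0.271 and Ugt2b35 0.335, and, among genes otherwise called lower, Ugt2a3 0.230, Ugt2b36 0.0188, Ugt3a1 0.0512 and Ugt3a2 0.0495. For the difference of the KO effects it was Ugt1a1 0.110. Without the 4 Dmbt1-rich libraries Ugt1a1 (0.0434) and Ugt3a2 (0.0175) turned for KO on chow, and Ugt1a1 (0.0493), Ugt2b36 (0.0295), Ugt3a1 (0.129) and Ugt3a2 (0.0298) for diet in WT. Ugt2b36 for diet in WT was 0.0393 with upper-quartile scaling and 0.0206 with no filter. Beyond the change of scale, filter or libraries itself, the cause was not tested.

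The number of the 10 called higher for KO on chow, 1, was 0 with hepatocyte scaling or the chow libraries alone and 2 without the Dmbt1-rich libraries. The number called lower for KO on HFMCD, 1, was 0 with upper-quartile or hepatocyte scaling and 2 without those libraries. For diet in WT, 0 higher became 1 with DESeq2, limma-voom, upper-quartile scaling, the compared groups alone or without those libraries, and 5 with hepatocyte scaling, where 2 lower became 1. For diet in KO, 7 lower became 2 and 0 higher became 1 with hepatocyte scaling. For the difference, 0 lower became 1 with DESeq2, without KO chow replicates 1 and 7 and without the Dmbt1-rich libraries.

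Leaving out 1 library at a time gave 0 to 3 higher and 0 lower for KO on chow, 0 lower for KO on HFMCD, 0 to 1 higher and 2 lower for diet in WT, and 5 to 8 lower for diet in KO. Values that crossed 0 ran, for KO on HFMCD, from -0.239 to 0.00556 (Ugt2b5) and -0.154 to 0.0549 (Ugt2b34). For diet in WT they ran from -0.0997 to 0.0596 (Ugt2b36), -0.195 to 0.0446 (Ugt3a1) and -0.122 to 0.0161 (Ugt3a2), and for the difference from -0.228 to 0.000335 (Ugt1a1).

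Over all genes, the 340 calls for KO on chow were 705 with DESeq2, 113 with limma-voom, 172 with hepatocyte scaling, 2 in the chow libraries alone (1 higher and 1 lower), 144 without KO chow replicates 1 and 7, and 189 without the Dmbt1-rich libraries. The 50 on HFMCD were 193 with DESeq2, 235 higher and 86 lower with limma-voom, 93 with hepatocyte scaling, 296 in the HFMCD libraries alone, 141 and 175 without those libraries, 32 with RLE, 28 with upper-quartile scaling and 28 with no filter. The 0 for the difference were 97 with DESeq2, 10 with limma-voom, 2 with hepatocyte scaling, 5 with no filter, and 84 and 62 without those libraries. With 1 library left out these counts ran from 49 to 611, 1 to 16 and 0 to 8. Reads of Ugt2b38, at 0 to 44 per library, limit what can be said of it. No paired analysis was possible because each title's number is its own and none is shared between groups.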
